A study of Nematostella vectensis with 30 samples.

Results

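The comparison described here is the knockdown (KD) of NveAGO1 in planulae of the sea anemone Nematostella vectensis against the control injected beside it. It holds 6 of the 30 libraries of the series, 3 named AGO1 KD and 3 named Control1 by their labels. For AGO1 KD, zygotes were injected with a morpholino antisense oligo (MO) that blocks translation of the NveAGO1 mRNA. For Control1, zygotes were injected with a control MO. Both groups were whole animals, pooled for each library and collected as planulae, the swimming larval stage, and no strain or genotype is labelled. The study designed more than a single MO against NveAGO1, and its methods do not say which was injected for these libraries. Because the MO acts on translation and only small RNAs were counted, the level of NveAGO1 cannot be checked in these libraries. A second pair of groups, AGO2 KD and Control2 (3 libraries each), was injected and counted in the same way. It enters the filter on low counts and the estimate of the spread, and shows where the responses differ.

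Argonaute (AGO) proteins carry microRNAs (miRNAs), small RNAs that steer them to matching mRNAs. A miRNA is cut from a hairpin precursor as a duplex of which the AGO keeps 1 strand, the guide, while the other strand, the star, is usually discarded and degraded. Bases 2 to 8 of the guide, the seed, lead the search for targets, and in cnidarians guides often pair with targets along most of their length and direct their cleavage. A guide held in an AGO is protected from decay, so the level of a guide and its ratio to the star are the usual readouts of loading. Nematostella has 2 such proteins, NveAGO1 and NveAGO2, and the study sorted guides by immunoprecipitation (IP) of each into those with over 70% preference for NveAGO1, for NveAGO2 or for neither.

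The sequences below are the arms on which the results turn, as deposited with the counts, with the seed in capitals. The first set are guides that were lower in AGO1 KD, together with nve-miR-100-5p, the Nematostella member of a miRNA family shared with bilaterian animals. nve-miR-2040a-3p and nve-miR-2040b-3p differ by 1 base, which lies in the seed. The last line is a newly annotated guide, called the newly annotated lower guide below.
nve-miR-2022-3p: uUUGCUAGuugcuuuugucccgc
nve-miR-2040a-3p: uUUGUCUCguaacugcccugaag
nve-miR-2040b-3p: uUCGUCUCguaacugcccugaag
nve-miR-2037-3p: uGUGAUUGgagacuuuuaccgu
nve-miR-9425: aAGAACACccaaaauagcuga
nve-miR-100-5p: gACCCGUAgauccgaacuugug
Newly annotated lower guide: aUUAUUUCcggcugcacacagg

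The second set are guides that were higher in AGO1 KD. nve-miR-2024e-3p and nve-miR-2024f-3p differ by 2 bases and share 1 seed, while nve-miR-2024a-3p of the same family has another. The last line is the newly annotated higher guide.
nve-miR-2024e-3p: uUGCACAUuaccaauauucuga
nve-miR-2024f-3p: uUGCACAUcaccaauguucuga
nve-miR-2024a-3p: uUACACAGuaccgauauuguga
nve-miR-2029-3p: gGUAAACUauggauugcgcuuc
nve-miR-2036-3p: uAUAUUGUacgacucucaucgua
nve-miR-2031-5p: uACGGCACucuauuuaugguacu
nve-miR-2026-5p: uUUCAAAUgucuacugaugga
nve-miR-2030-5p: uAGCAUAAcauuguaagagauu
Newly annotated higher guide: uACCCGGAuucuccaccagu

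The third set are star strands that were higher in AGO1 KD by more than their own guides. They are the partners of nve-miR-2036-3p, nve-miR-2026-5p and nve-miR-2030-5p.
nve-miR-2036-5p: cGGUGAGAacguacaguaagca
nve-miR-2026-3p: cAUCAGUGgguauuugaaguu
nve-miR-2030-3p: cCUCUUUAcauuguugugcugua

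Levels depended first on how the libraries were scaled. The authors added 4 synthetic RNAs (spike-ins) to the total RNA and scaled miRNA counts to their mean, and the same was done here. The mean spike-in count was 21702.5, 46420.5 and 46692 in the AGO1 KD libraries, against 89122.8, 72230.2 and 77550.5 in the Control1 libraries, so every KD library held fewer spike-in reads. The miRNA counts summed to 39892, 56311 and 70321 in AGO1 KD, against 67277, 46619 and 62426 in Control1, and these sums overlapped. The miRNA count per spike-in count was therefore 1.84, 1.21 and 1.51 in AGO1 KD (mean 1.52 ± 0.313, SD, n = 3), against 0.755, 0.645 and 0.805 in Control1 (mean 0.735 ± 0.0816, SD, n = 3). The 2 groups did not overlap, with a ratio of means of 2.07. An exact two-sided permutation test gave p = 0.10, which is the smallest p that 3 libraries against 3 allow. Outside these groups, low spike-in counts came with both high and low values of this quantity. The Control2 library with a mean spike-in count of 33698.8 was at 1.32, above the lowest AGO1 KD library, while the AGO2 KD libraries with 43751.5 and 56779.8 were at 0.528 and 0.560. The part of spike-in depth in the result was not tested. In RNA of whole animals, a change in the number of cells that make a miRNA and a change in the amount per cell cannot be told apart. The composition of the spike-ins varied little, the ratio of methylated to unmethylated ones being 1.13 to 1.48 in the AGO1 KD libraries, against 1.19 to 1.45 in the Control1 libraries.

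**Figure D1:**
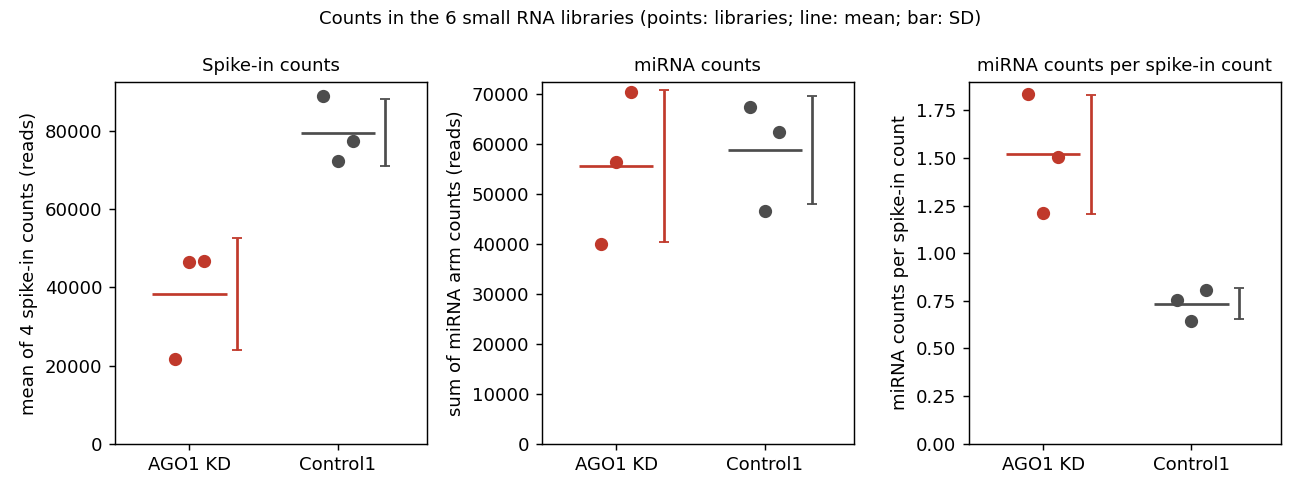
Mean of the 4 spike-in counts (reads), sum of all miRNA arm counts (reads) and their ratio in the 3 AGO1 KD (red) and 3 Control1 (grey) libraries; points are libraries, lines means and bars SD. Every AGO1 KD library lies below every Control1 library in spike-in counts and above it in miRNA counts per spike-in count (1.21 to 1.84 against 0.645 to 0.805), while the miRNA sums overlap.

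Of the 257 arms counted, 61 had at least 10 counts in at least 3 of the 12 KD and control libraries and were tested, 44 guides and 17 stars. They held at least 99.6% of the miRNA counts in each of the 6 libraries. The other 196 arms were at or under a mean of 1.76 counts per 10000 spike-in counts, and 82 arms of the table had no count in any of the 6 libraries. Levels below are counts per 10000 spike-in counts, fold changes are log2 of AGO1 KD over Control1 with their standard error (SE), and p-values are from edgeR's quasi-likelihood test over all 61 arms with Benjamini-Hochberg adjustment. An arm was called at an adjusted p under 0.05.

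Scaled to spike-ins, 26 arms were called higher (42.6% of those tested) and 6 were called lower (9.84%) in AGO1 KD. The median log2 fold change over the 61 arms was 0.82. Scaled to the sum of miRNA counts instead, the median was -0.13, a shift of -0.96, and 9 arms were called higher (14.8%) and 13 lower (21.3%). Of the arms called, 6 were lower and 9 higher on both scales, 17 were called higher on the spike-in scale only and 7 lower on the miRNA sum scale only. No arm was called in opposite directions. Without regard to a test, 33 arms lay above every Control1 library in all AGO1 KD libraries (54.1%) and 7 lay below (11.5%) on the spike-in scale. Leaving out a single library left 16 to 23 arms higher and 4 to 7 lower. The count of higher arms moved by over 1.5 times without AGO1 KD replicate 1 (16), Control1 replicate 1 (17) or Control1 replicate 2 (17), and the count of lower arms was 4 without Control1 replicate 2.

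**Figure D2:**
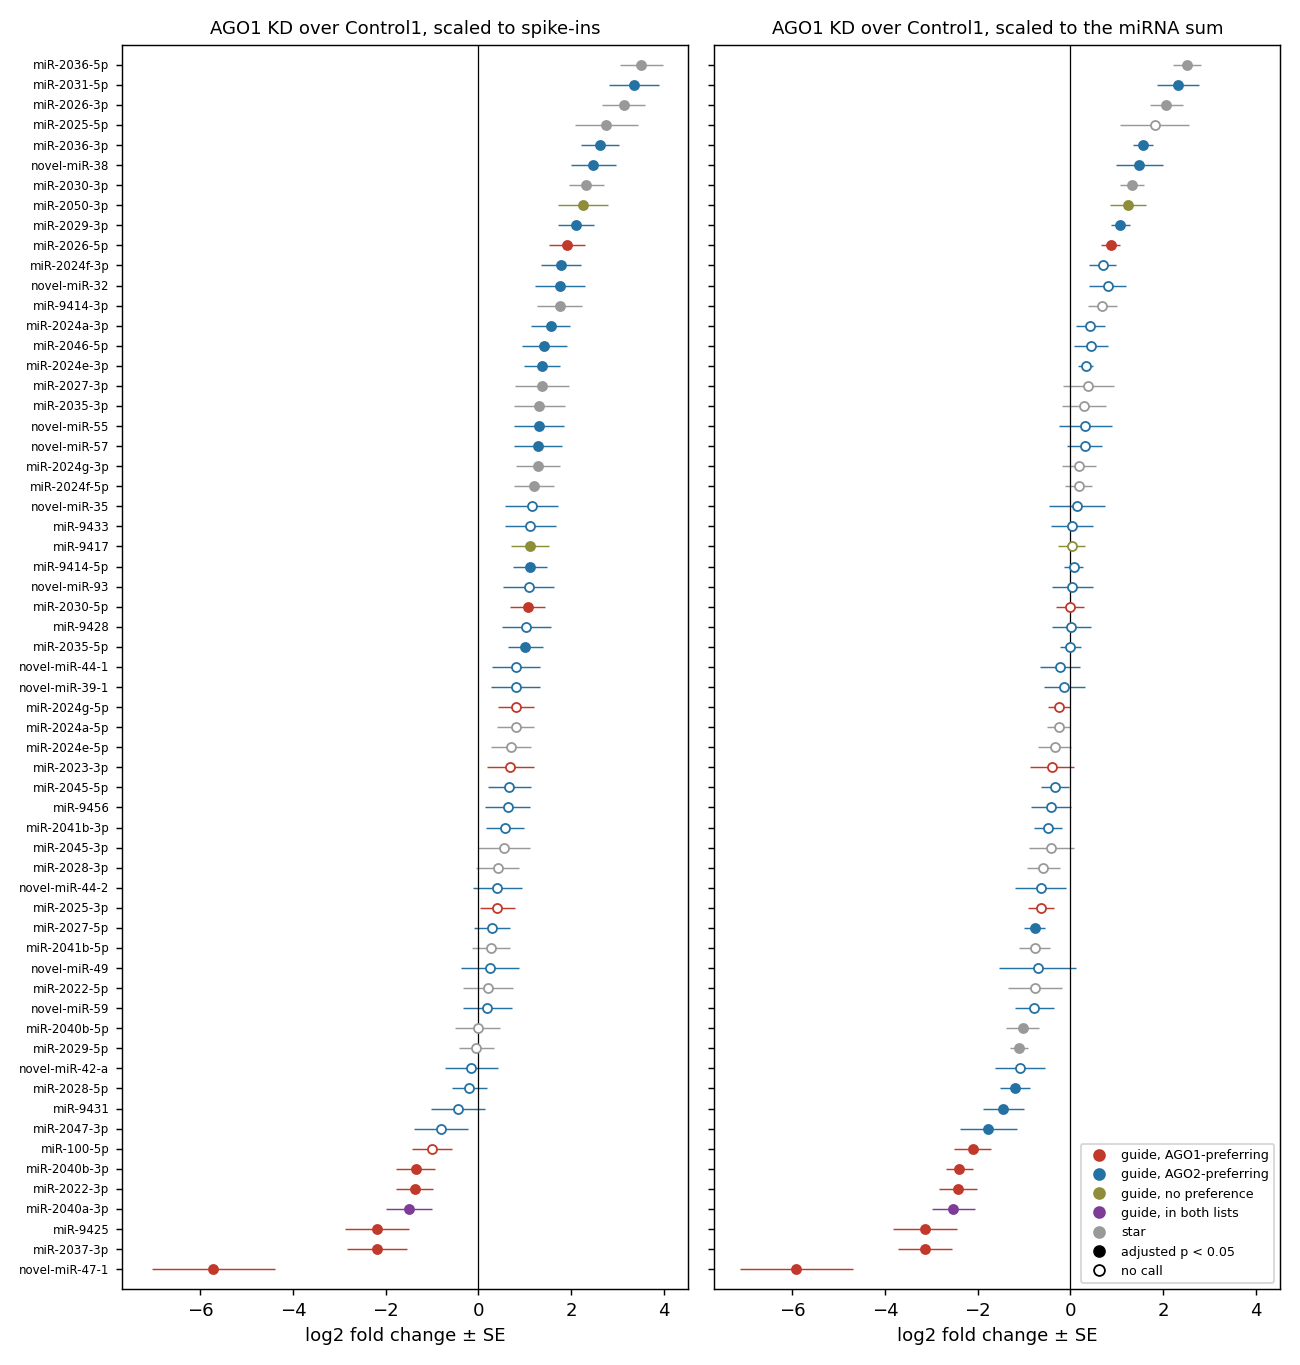
Log2 fold change of AGO1 KD over Control1 with its SE for the 61 arms tested, scaled to spike-ins (left) and to the sum of miRNA counts (right); guides are coloured by their IP preference list, stars are grey, and filled points passed an adjusted p of 0.05. The points lie further left on the miRNA sum scale, with 9 higher and 13 lower calls against 26 and 6 on the spike-in scale; the lowest point had no count in AGO1 KD and its fitted value is not a bound.

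All 6 arms called lower in AGO1 KD were guides, 5 of them on the NveAGO1 list and the remaining 1, nve-miR-2040a-3p, on both lists. nve-miR-2022-3p, a miRNA found across cnidarians, was the most abundant of them. Its level was 115, 88.1 and 66.0 in AGO1 KD, against 162, 284 and 250 in Control1, with no overlap between the groups (log2 fold change -1.37 ± 0.40, SE, n = 3 each, adjusted p = 0.0050 by edgeR). As a share of all miRNA counts it was 0.627%, 0.726% and 0.438% in AGO1 KD, against 2.15%, 4.39% and 3.10% in Control1, again without overlap.

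The nve-miR-2040 pair fell together, although a single base in the seed separates them. nve-miR-2040b-3p was at 59.0, 38.6 and 37.7 in AGO1 KD, against 136, 92.1 and 116 in Control1, again without overlap (log2 fold change -1.35 ± 0.42, adjusted p = 0.0089 by edgeR). nve-miR-2040a-3p was at 5.53, 5.39 and 7.496 in AGO1 KD, against 16.2, 24.0 and 12.1 in Control1 (log2 fold change -1.49 ± 0.50, adjusted p = 0.013 by edgeR). Its call was lost without Control1 replicate 2, the library with its highest level (adjusted p = 0.089 by edgeR).

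The rarer guides of this set fell by more, on few reads. nve-miR-2037-3p had 1, 2 and 2 counts in the AGO1 KD libraries, against 20, 19 and 10 in Control1, or 0.461, 0.431 and 0.428 per 10000 spike-in counts against 2.24, 2.63 and 1.29 (log2 fold change -2.18 ± 0.65, adjusted p = 0.0064 by edgeR). nve-miR-9425 had 1, 1 and 2 counts in AGO1 KD, against 11, 19 and 9 in Control1 (log2 fold change -2.18 ± 0.69, adjusted p = 0.0094 by edgeR). This call was lost without AGO1 KD replicate 2 or without Control1 replicate 2, at an adjusted p of up to 0.067 by edgeR. The newly annotated lower guide had no count in any AGO1 KD library, against 8, 13 and 5 counts in Control1 (adjusted p = 0.00075 by edgeR). With a floor of 3 counts over the AGO1 KD group, its level was at least 4.17-fold lower in AGO1 KD. This bound was 2.48 without AGO1 KD replicate 2 and 2.47 without AGO1 KD replicate 3.

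nve-miR-100-5p, on the NveAGO1 list too, was at 75.1, 36.6 and 34.3 in AGO1 KD, against 87.1, 118 and 84.6 in Control1. The groups did not overlap, but on the spike-in scale the difference did not pass the test (log2 fold change -1.00025 ± 0.44, adjusted p = 0.052 by edgeR). With the replicate block, which pairs libraries of the same replicate number, it passed at log2 -1.07 (adjusted p = 0.013 by edgeR). Scaled to the sum of miRNA counts it passed as well, at log2 -2.11 (adjusted p = 0.00055 by edgeR).

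Not every NveAGO1 guide fell. Of the 11 guides on that list alone that were tested, 5 were lower, 2 were higher and 4 were not called, with a median log2 fold change of -1.00025, beside 13.6% lower and 38.6% higher over all 44 guides (median 0.82). On the miRNA sum scale 6 of the 11 were lower and 1 was higher (median -2.11). nve-miR-2030-5p, an abundant guide, was at 1732, 1267 and 1272 in AGO1 KD, against 586, 818 and 636 in Control1 (log2 fold change 1.07 ± 0.37, adjusted p = 0.018 by edgeR). This was close to the median of all arms, and on the miRNA sum scale its fold change was -0.0012 and was not called. The call on the spike-in scale was lost without AGO1 KD replicate 1, Control1 replicate 1 or Control1 replicate 3, at an adjusted p of up to 0.090 by edgeR. nve-miR-2026-5p was higher on both scales, at 281, 200 and 263 in AGO1 KD, against 49.7, 67.0 and 81.2 in Control1 (log2 fold change 1.91 ± 0.39, adjusted p = 0.00011 by edgeR). nve-miR-2025-3p (log2 0.41) and nve-miR-2023-3p (log2 0.69) were not called on either scale. nve-miR-2024g-5p, annotated as a guide of this list, is nve-miR-2024a-5p without its last base, and the counts of both arms differed by at most 1 in every library, so their reads cannot be told apart.

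**Figure D3:**
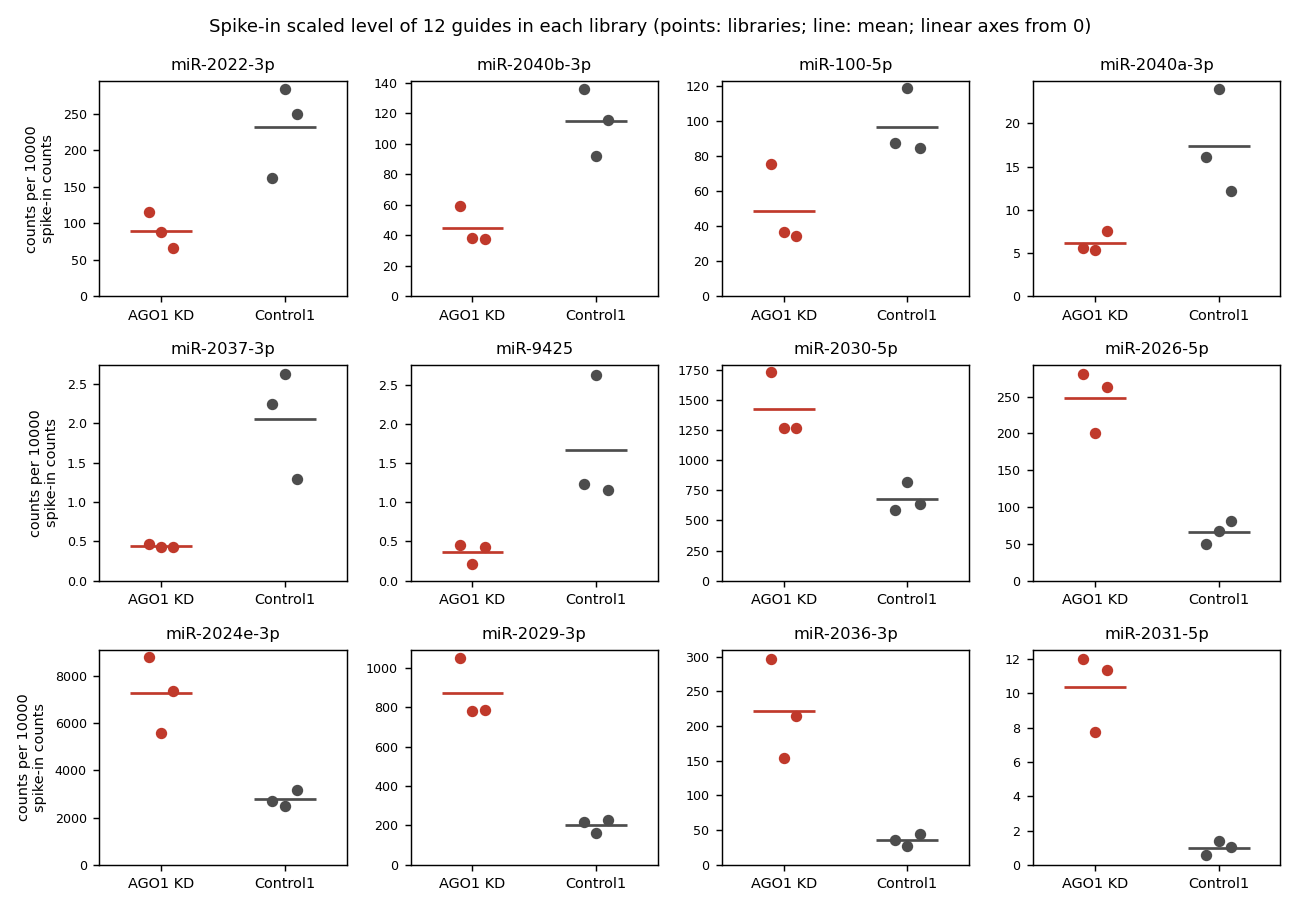
Level (counts per 10000 spike-in counts, linear axes from 0) of 12 guides in each of the 3 AGO1 KD (red) and 3 Control1 (grey) libraries; points are libraries and lines means. The first 6 panels show guides whose AGO1 KD libraries all lie below Control1, such as nve-miR-2022-3p (66.0 to 115 against 162 to 284), and the last 6 panels guides whose AGO1 KD libraries all lie above it.

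No guide on the NveAGO2 list alone was called lower on the spike-in scale. Of the 30 tested, 13 were called higher and 17 were not called, beside 17 higher among all 44 guides (38.6%), with a median log2 fold change of 1.06. On the miRNA sum scale 4 were higher and 4 lower, beside 6 higher and 11 lower among all 44 guides, with a median of 0.03. nve-miR-2024e-3p was the most abundant arm, with 47.9%, 46.2% and 49.0% of all miRNA counts in AGO1 KD, against 35.6%, 38.8% and 39.5% in Control1. Its level was 8808, 5599 and 7384 in AGO1 KD, against 2687, 2507 and 3183 in Control1 (log2 fold change 1.38 ± 0.39, adjusted p = 0.0040 by edgeR). On the miRNA sum scale, which this guide itself weighs on, it was 0.33 (adjusted p = 0.14 by edgeR). nve-miR-2024f-3p, which carries the same seed, was at 266, 104 and 145 in AGO1 KD, against 53.7, 40.3 and 54.8 in Control1 (log2 fold change 1.79 ± 0.43, adjusted p = 0.00081 by edgeR). nve-miR-2024a-3p was at 346, 116 and 143 in AGO1 KD, against 69.4, 66.3 and 68.6 in Control1 (log2 fold change 1.56 ± 0.42, adjusted p = 0.0032 by edgeR). In both, AGO1 KD replicate 1 was the highest library, and without it nve-miR-2024a-3p was no longer called (log2 fold change 0.92, adjusted p = 0.081 by edgeR).

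The guides that rose most did so on both scales. nve-miR-2029-3p was at 1049, 784 and 787 in AGO1 KD, against 219, 161 and 228 in Control1 (log2 fold change 2.11 ± 0.38, adjusted p = 2.4e-05 by edgeR). nve-miR-2036-3p was at 297, 154 and 215 in AGO1 KD, against 36.02, 27.0 and 44.7 in Control1 (log2 fold change 2.62 ± 0.40, adjusted p = 1.8e-06 by edgeR). nve-miR-2031-5p, a scarce guide, was at 11.98, 7.76 and 11.4 in AGO1 KD, against 0.561, 1.38 and 1.03 in Control1 (log2 fold change 3.37 ± 0.54, adjusted p = 2.6e-06 by edgeR). The groups did not overlap in any of the 3. The newly annotated higher guide was at 70.5, 69.4 and 77.5 in AGO1 KD, against 24.2, 6.78 and 7.61 in Control1 (log2 fold change 2.49 ± 0.48, adjusted p = 5.6e-05 by edgeR). Control1 replicate 1 stood above the other controls for this guide, and without it the log2 fold change was 3.33. nve-miR-2050-3p, a guide of neither list, was also higher on both scales (log2 2.26 ± 0.53, adjusted p = 0.00075 by edgeR).

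The other NveAGO2 guides given here changed by less than the guides that rose most. nve-miR-9414-5p (log2 1.11 ± 0.37, adjusted p = 0.012 by edgeR) and nve-miR-2035-5p (log2 1.02 ± 0.38, adjusted p = 0.023 by edgeR) were called higher on the spike-in scale and stood at log2 0.07 and 0.00 on the miRNA sum scale, where neither was called. The nve-miR-9414-5p call was lost without AGO1 KD replicate 1 or Control1 replicate 2 (adjusted p of up to 0.076 by edgeR), and the nve-miR-2035-5p call without AGO1 KD replicate 3, Control1 replicate 1 or Control1 replicate 2 (up to 0.12). nve-miR-2028-5p was at 1004, 779 and 1090 in AGO1 KD, against 1367, 647 and 1267 in Control1, and the groups overlapped (log2 -0.19 ± 0.38, adjusted p = 0.69 by edgeR). nve-miR-2027-5p was at 920, 456 and 874 in AGO1 KD, against 666, 489 and 686 in Control1, with overlap as well (log2 0.29 ± 0.39, adjusted p = 0.53 by edgeR). On the miRNA sum scale both were called lower, at log2 -1.20 and -0.77. Both are NveAGO2-preferring in the study's lists. nve-miR-2046-5p, a low NveAGO2 guide, was at 9.68, 14.002 and 11.99 in AGO1 KD, against 4.60, 5.26 and 3.48 in Control1 (log2 1.43 ± 0.48, adjusted p = 0.013 by edgeR), and its call was lost without AGO1 KD replicate 2 or Control1 replicate 3 (adjusted p of up to 0.062 by edgeR). nve-miR-2041b-3p was at 48.4, 37.9 and 39.6 in AGO1 KD, against 31.5, 30.6 and 22.3 in Control1, a difference that did not pass the test (log2 0.57 ± 0.41, adjusted p = 0.23 by edgeR).

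Of 17 stars tested, 9 were called higher and none lower on the spike-in scale, beside 42.6% higher and 9.84% lower over all arms (median log2 fold change 1.19, against 0.82 over all arms), and 3 were higher and 2 lower on the miRNA sum scale. nve-miR-2036-5p had the highest fold change of any arm tested, at 105, 84.4 and 104 in AGO1 KD, against 8.53, 5.26 and 11.7 in Control1 (log2 3.52 ± 0.46, adjusted p = 1.2e-07 by edgeR). nve-miR-2026-3p was at 117, 74.1 and 88.7 in AGO1 KD, against 8.08, 11.9 and 11.7 in Control1 (log2 3.14 ± 0.47, adjusted p = 1.3e-06 by edgeR). nve-miR-2030-3p was at 309, 338 and 259 in AGO1 KD, against 52.4, 59.5 and 68.5 in Control1 (log2 2.33 ± 0.38, adjusted p = 2.8e-06 by edgeR). These 3 stars were called higher on both scales, and in each the lowest AGO1 KD library lay far above the highest Control1 library. Each of the 17 stars had a guide that was tested too. For 6 of these 17 miRNAs, nve-miR-2024f, nve-miR-2026, nve-miR-2030, nve-miR-2035, nve-miR-2036 and nve-miR-9414, both arms were called higher on the spike-in scale. Over all arms, 42.6% were called higher on that scale. On the miRNA sum scale both arms were called higher only for nve-miR-2026 and nve-miR-2036. Of all arms called, 12 of the 26 higher and 4 of the 6 lower were called again whichever library was left out.

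The ratio of guide to star within a library does not depend on how libraries are scaled, and it was tested by edgeR with each library as a block. Of 25 miRNAs with at least 50 guide and 5 star counts in the 6 libraries, the ratio was lower in AGO1 KD for 9 (36%) and higher for 2 (8%). Among the 8 miRNAs with a guide on the NveAGO1 list alone, 7 were lower and none higher (median log2 change -1.46, against -0.59 over all 25), the exception being nve-miR-2024g, whose guide reads are uncertain. Among the 16 on the NveAGO2 list alone, 1 was lower and 2 were higher (median 0.19). nve-miR-2040a, in both lists, was lower.

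The guide and the star each contributed differently among the NveAGO1 miRNAs. For nve-miR-2022 the ratio was 16.7, 8.89 and 22 in AGO1 KD, against 36.1, 42.7 and 42.1 in Control1 (log2 change -1.54 ± 0.40, adjusted p = 0.00073 by edgeR), and for nve-miR-2040b it was 4.57, 4.47 and 3.67, against 11.7, 12.1 and 9.25 (log2 change -1.38 ± 0.36, adjusted p = 0.00073 by edgeR). In both the guide fell while the star was not called (log2 0.21 and -0.02). For nve-miR-2030 the ratio was 5.61, 3.75 and 4.91 in AGO1 KD, against 11.2, 13.7 and 9.29 in Control1 (log2 change -1.26 ± 0.33, adjusted p = 0.00073 by edgeR), and for nve-miR-2026 it was 2.41, 2.70 and 2.96, against 6.15, 5.63 and 6.92 (log2 change -1.21 ± 0.33, adjusted p = 0.00098 by edgeR). Here the guide was higher and the star higher still. For nve-miR-2025 the ratio was 74.0, 29.5 and 35.1 in AGO1 KD, against 250, 228 and 187 in Control1 (log2 change -2.42 ± 0.65, adjusted p = 0.00093 by edgeR), with a star of 3, 11 and 11 counts in AGO1 KD, against 2, 2 and 3 in Control1. The star of nve-miR-100 had 1, 7 and 12 counts in AGO1 KD and none in Control1 (adjusted p = 4.1e-10 by edgeR). With a floor of 3 star counts over the Control1 group, the guide to star ratio of nve-miR-100 was at least 30.9-fold lower in AGO1 KD, on 20 star reads in all. The bound was 18.3 without AGO1 KD replicate 3, 20.4 without Control1 replicate 1 and 19.4 without Control1 replicate 2. The ratio was also lower for nve-miR-2040a (log2 -2.41 ± 0.57, adjusted p = 0.00031 by edgeR) and nve-miR-2023 (log2 -1.64 ± 0.59, adjusted p = 0.014 by edgeR). The nve-miR-2023 call was lost without AGO1 KD replicate 2 or 3, or without Control1 replicate 1 or 2, at an adjusted p of up to 0.11 by edgeR, and the nve-miR-2022 call was lost without AGO1 KD replicate 2 (adjusted p = 0.066 by edgeR).

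Among the NveAGO2 miRNAs, nve-miR-2036 had a lower ratio, at 2.82, 1.82 and 2.07 in AGO1 KD, against 4.22, 5.13 and 3.81 in Control1 (log2 change -0.97 ± 0.33, adjusted p = 0.0097 by edgeR). The call was lost without AGO1 KD replicate 2 or without Control1 replicate 2, at an adjusted p of up to 0.066 by edgeR. nve-miR-2029 went the other way, at 14.5, 17.5 and 12.6 in AGO1 KD, against 3.63, 2.61 and 3.67 in Control1 (log2 change 2.17 ± 0.33, adjusted p = 5.4e-09 by edgeR). Its guide rose as given above while its star was at 72.3, 44.8 and 62.5 in AGO1 KD, against 60.4, 61.9 and 61.9 in Control1, with overlap (log2 -0.04). The other miRNA with a higher ratio, a newly annotated one, had no star count in AGO1 KD, against 2, 4 and 5 star counts in Control1. With a floor of 3 counts over the AGO1 KD group its ratio was at least 2.03-fold higher. Without AGO1 KD replicate 2 its call was lost (adjusted p = 0.078 by edgeR) and the bound was 0.941, which gives no direction. For nve-miR-2047, also on the NveAGO2 list, the ratio was 1.33, 2.67 and 0.50 in AGO1 KD, against 3.78, 6.60 and 2.22 in Control1, with overlap, and did not pass the test (log2 change -1.44 ± 0.64, adjusted p = 0.051 by edgeR). With the replicate block it passed, at log2 -1.63 (adjusted p = 0.020 by edgeR). For nve-miR-2024e the ratio was 434, 377 and 442 in AGO1 KD, against 328, 211 and 274 in Control1, which did not pass the test (log2 change 0.65 ± 0.36, adjusted p = 0.12 by edgeR).

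**Figure D4:**
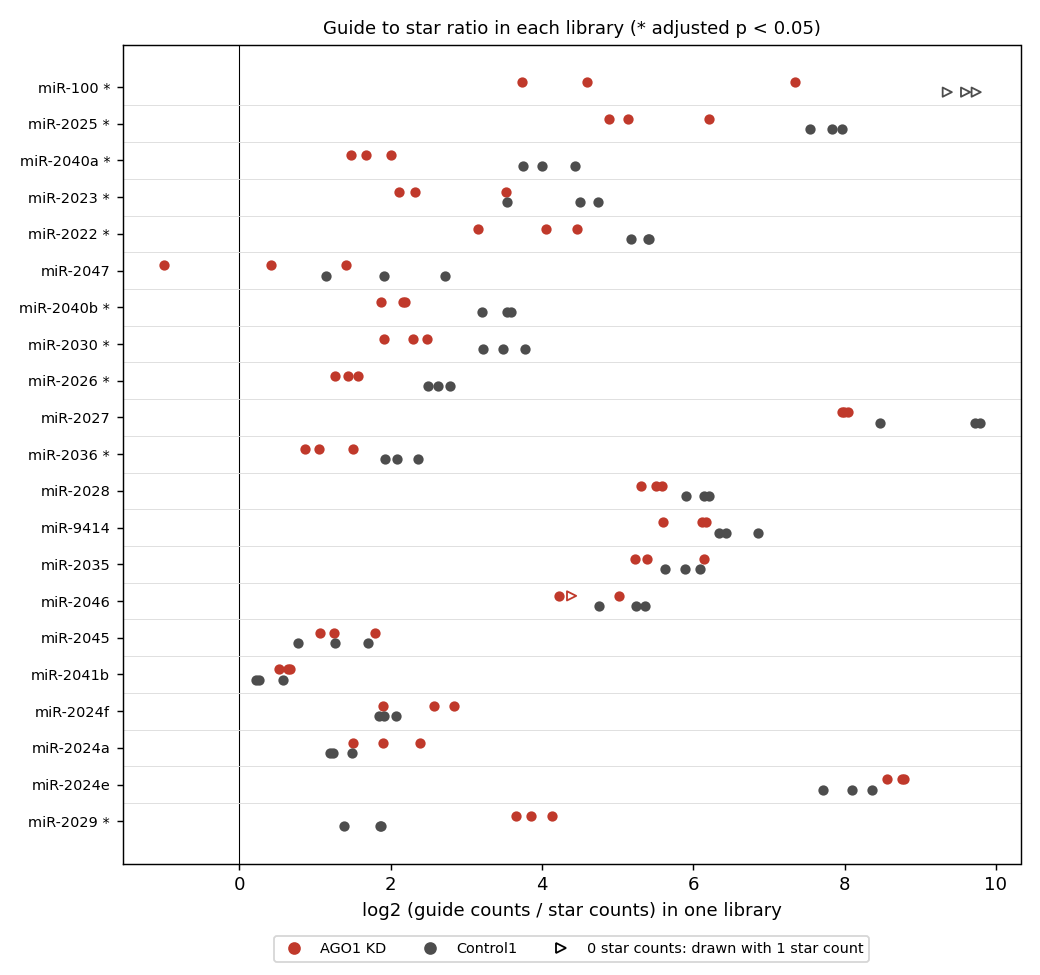
Log2 ratio of guide counts to star counts in each of the 3 AGO1 KD (red) and 3 Control1 (grey) libraries for known miRNAs with enough counts, ordered by the fitted change; triangles are libraries with 0 star counts, drawn as if they had 1, and an asterisk marks an adjusted p under 0.05. nve-miR-2031 and nve-miR-2024g are left out, the first for its few star counts and the second for reads shared with nve-miR-2024a. In all 9 miRNAs with a lower ratio the AGO1 KD points lie left of every Control1 point, and in nve-miR-2029 they lie right of them.

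The IP libraries of early planulae give a measure of loading that the KD libraries did not enter. For each arm, miRNA counts scaled to the miRNA sum of each library (CPM) were averaged over the 2 NveAGO1 IPs and the 2 NveAGO2 IPs, and the NveAGO1 part is the percentage of their sum. Since each IP is scaled to its own miRNA total, the percentage compares arms and is no absolute split. All 6 guides called lower in AGO1 KD had an NveAGO1 part of 96.9% or more, 99.3% for nve-miR-2022-3p, 97.6% for nve-miR-2040b-3p, 98.1% for nve-miR-2040a-3p and 98.5% for nve-miR-9425. nve-miR-100-5p was at 96.2%. Parts as high or nearly so belonged to guides that were not called lower. They were 97.5% for nve-miR-2024g-5p, whose reads are uncertain, 96.1% for nve-miR-2025-3p, 95.7% for nve-miR-2023-3p, 94.2% for nve-miR-2026-5p and 93.5% for nve-miR-2030-5p. The 2 tested guides of neither list, both called higher on the spike-in scale, were at 90.7% (nve-miR-2050-3p) and 71.8% (nve-miR-9417). Of the 22 guides with a part over 50%, 6 were called lower and 6 higher (median log2 fold change 0.68), and of the 22 at or below 50%, none was called lower and 11 were called higher (median 1.10). Across the 44 guides, which share the same libraries, the log2 fold change and the log2 ratio of NveAGO1 to NveAGO2 CPM had a Pearson correlation of -0.46 and a Spearman correlation of -0.32, given as a description. nve-miR-2036-3p and nve-miR-2027-5p, on the NveAGO2 list, had an NveAGO1 part of 72.2% and 85.0% at this stage. Other guides on that list were over 50% as well, among them nve-miR-2045-5p at 67.8% and nve-miR-9428 at 50.3%. The study's lists draw on later stages too.

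**Figure D5:**
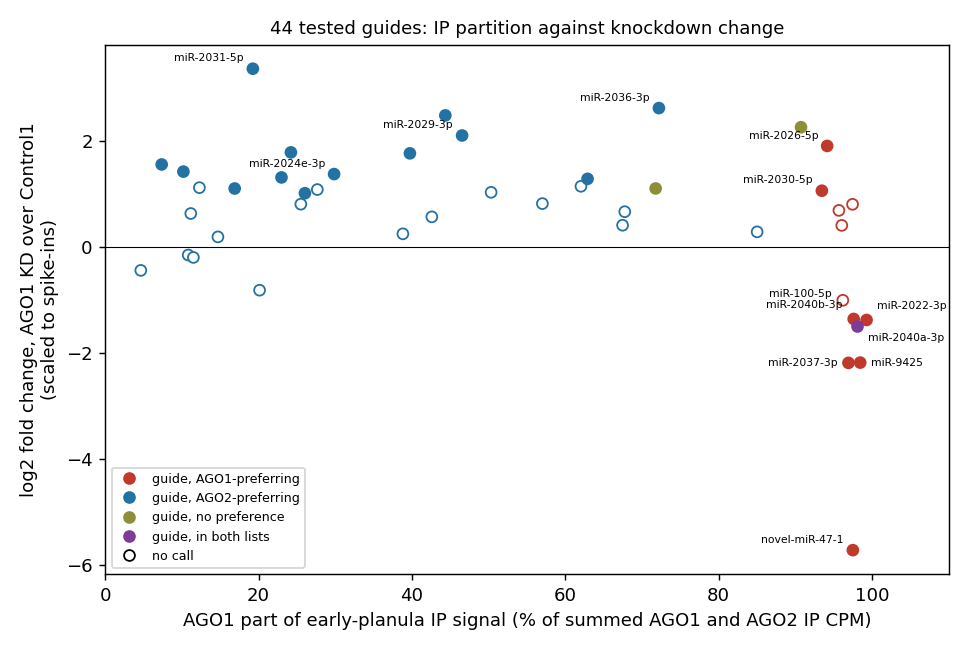
Log2 fold change of AGO1 KD over Control1 (scaled to spike-ins) against the NveAGO1 part of the early-planula IP signal (percent of summed CPM) for the 44 guides tested; colours give the preference list, and filled points passed an adjusted p of 0.05. The 6 lower guides all lie at 96.9% or more, beside guides of similar part that were not lower, and 11 of the 17 higher guides lie at or below 50%.

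Among star strands, nve-miR-2036-5p and nve-miR-2026-3p, the stars with the highest fold changes, had an NveAGO1 part of 96.6% and 96.5% in early planulae, and nve-miR-2030-3p one of 71.5%. nve-miR-2029-5p, which was not called in AGO1 KD on the spike-in scale, had 97.6%, against 46.5% for its guide. nve-miR-9414-3p, called higher (log2 1.76 ± 0.49, adjusted p = 0.0037 by edgeR), had 6.96%.

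The response to AGO1 KD differed from the response to AGO2 KD, each against its own control, for 28 of 61 arms (45.9%) by edgeR's test of the difference. The value was more positive in AGO1 KD for 25 of them and more negative for 3. All of these values are on the spike-in scale, where the miRNA totals moved in opposite directions. The miRNA count per spike-in count was 1.21 to 1.84 in AGO1 KD, against 0.645 to 0.805 in Control1. It was 0.528 to 0.560 in AGO2 KD, against 0.618 to 1.32 in Control2. The difference of every arm includes these shifts, and their part in the 25 and 3 was not tested. The 3 were the newly annotated lower guide, nve-miR-2037-3p and nve-miR-2040a-3p, each lower in AGO1 KD and not called in AGO2 KD. For nve-miR-2040a-3p the log2 fold changes were -1.49 in AGO1 KD and 0.75 in AGO2 KD (adjusted p = 0.0058 for the difference, by edgeR). nve-miR-2022-3p fell in both knockdowns and by less in AGO1 KD (log2 -1.37 in AGO1 KD and -3.62 in AGO2 KD, adjusted p = 0.00087 for the difference, by edgeR). nve-miR-2040b-3p also fell in both (log2 -1.35 in AGO1 KD and -1.89 in AGO2 KD), and the difference did not pass the test (0.54, adjusted p = 0.51 by edgeR). nve-miR-2024e-3p was higher in AGO1 KD and lower in AGO2 KD (log2 1.38 and -1.08, adjusted p = 0.00028 for the difference, by edgeR). The newly annotated higher guide was higher in both (log2 2.49 and 2.68, adjusted p = 0.83 for the difference, by edgeR). Between the control groups themselves, Control1 against Control2, 1 arm of 61 was called (1.64%), nve-miR-2025-5p, and 6 had an unadjusted p under 0.05.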

How the data were processed

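Small RNAs of 6 planula libraries (AGO1 KD and Control1) were analysed together with 6 libraries of AGO2 KD and Control2, so that all 4 groups shared an estimate of the spread. Cutadapt is named in the submitters' processing notes, with no version in the sources used. The authors counted reads per miRNA arm with mirDeep2, which in the KD libraries was run without mismatches. The deposited KD columns are raw counts, but the authors' averages of the spike-ins stand among them, so by unit these columns were treated as estimated counts in the deposited table. Those averages were left out, and every remaining value was whole. The deposited IP table holds raw counts of reads per arm.

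Library sizes were the mean of the 4 spike-in counts. Arms reaching 10 counts in 3 or more of the 12 libraries were tested with edgeR 4.0.16 (quasi-likelihood F test, 1 mean per group, 8 residual degrees of freedom, prior count 0.125) in R 4.3.3. For guide to star ratios, both strands' counts entered a model with a term for each library. Alternatives used DESeq2 1.42.0 and limma 3.58.1. Figures and summaries used Python 3.11.15, pandas 2.3.3 and matplotlib 3.10.9. The tests were tried on simulated counts. Libraries of a group differed by a chi-square of 11.5 to 51.7 per degree of freedom, well beyond counting noise, so none was a repeat. Floors cover counting error only. p-values measure the spread between pooled batches of animals.

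The methods state that KD and control animals of a replicate came from 1 batch of zygotes injected on 1 day. The labels do not say that libraries of the same number share a day, and the block pairs them by number alone. Deviations of same-numbered AGO1 KD and Control1 libraries from their group means correlated at -0.26, 0.33 and 0.10 over the 61 arms. Pairs of unlike number ran from -0.32 to 0.30, so these values do not show that the numbers mark pairs. The main fit had no block, and the blocked fit is given where it changes a call.

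Named in the text are arms called, up to 12 per direction by mean level, the 10 most abundant guides, a set list of miRNAs, up to 6 miRNAs per direction for the strand ratio and up to 8 arms for the difference between knockdowns. Any other arm named was chosen after its values were seen. Members and lists were chosen with earlier results of these data known. Preference lists are the study's, from its IP libraries, and 2 guides in both lists were set apart. Which arm is guide and which is star follows the study's annotation. Apart from these lists, which draw on IPs of early planulae, primary polyps and adult males, IP libraries of other stages were not used here.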

Additional observations from a re-analysis of the deposited data

Results flagged for a closer look

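The 8 arms below are those with the smallest p for a difference between the responses to AGO1 KD and to AGO2 KD, in edgeR's fit of all 12 libraries scaled to spike-ins. The values are the log2 fold change in AGO1 KD minus that in AGO2 KD. They include the opposite shifts of the miRNA totals on the spike-in scale, given above. The difference was 4.81 for nve-miR-2030-3p (adjusted p = 2.1e-09 by edgeR), whose level in the AGO2 KD experiment was 18.1, 15.5 and 11.7 in AGO2 KD and 99.1, 90.8 and 63.5 in Control2. It was 4.21 for nve-miR-2026-3p and 2.74 for its guide nve-miR-2026-5p. It was 3.24 for nve-miR-2025-3p, at 22.9, 21.0 and 12.4 in AGO2 KD and 132, 173 and 94.7 in Control2. For its star nve-miR-2025-5p it was 6.46, on 2 AGO2 KD libraries with a count and 1 without. This star also differed between the controls, at log2 -2.49 for Control1 minus Control2 (adjusted p = 0.035 by edgeR). The difference between the responses was 5.74 for nve-miR-2022-5p, with log2 0.21 in AGO1 KD, not called, and -5.53 in AGO2 KD. This star was at 0.352, 0.914 and 0 in AGO2 KD and 16.9, 27.3 and 9.30 in Control2. The difference was 3.08 for nve-miR-2029-3p and 3.35 for nve-miR-2036-5p. In nve-miR-2036-5p the difference came with log2 3.52 in AGO1 KD and 0.16 in AGO2 KD.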

How the results depend on the processing

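Scaling was the choice that moved most results. Against 26 arms higher and 6 lower with spike-ins, TMM factors gave 9 and 11, DESeq2 size factors 12 and 11, and the sum of miRNA counts 9 and 13. With at least 50 counts in 3 libraries 17 arms were higher, fewer arms being tested. Leaving out each library gave 16 to 23 higher and 4 to 7 lower. The count of higher guide to star ratios was 4 with only the 6 libraries in the fit, 1 with at least 20 star counts and 1 to 2 with each library left out, and that of lower ratios 7 to 11. The single call between Control1 and Control2 became 0 with the sum of miRNA counts, TMM, DESeq2 factors, DESeq2 itself, no filter and the stricter filter, and 0 to 1 with each library left out. Arms not called on the spike-in scale changed sign under the sum of miRNA counts, TMM and DESeq2 factors, in this order: nve-miR-2022-5p at log2 -0.76, -0.73 and -0.64, nve-miR-2023-3p at -0.39, -0.28 and -0.23, nve-miR-2024a-5p at -0.25, -0.16 and -0.11, nve-miR-2024e-5p at -0.34, -0.24 and -0.19, nve-miR-2024g-5p at -0.25, -0.16 and -0.11, nve-miR-2025-3p at -0.64, -0.54 and -0.49, nve-miR-2027-5p at -0.77, -0.65 and -0.62, nve-miR-2028-3p at -0.58, -0.50 and -0.46, nve-miR-2041b-3p at -0.48, -0.38 and -0.32, and nve-miR-2041b-5p at -0.77, -0.68 and -0.61. nve-miR-2030-5p was at -0.0012 with the sum of miRNA counts. nve-miR-2040b-5p, near 0, was at 0.018 with the geometric mean of spike-ins, 0.00017 with unmethylated spike-ins and 0.0086 with the replicate block. With each library left out, nve-miR-2022-5p ran between -0.27 and 0.59, nve-miR-2029-5p between -0.19 and 0.13, nve-miR-2040b-5p between -0.20 and 0.12 and nve-miR-2028-5p between -0.46 and 0.00015. The replicate block gave 26 arms higher and 7 lower and 10 lower ratios, and among the arms and ratios named it changed no call other than those of nve-miR-100-5p and nve-miR-2047. The cause of these changes was not tested. The miRNA totals of 39892 to 70321 counts limit the rare arms, and 3 libraries a group limit every p-value.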

Other observations

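Of the 44 guides tested, 13 were newly annotated, and of these 4 were called higher and 1 lower on the spike-in scale, beside 38.6% higher and 13.6% lower over all guides tested. The 6 lower guides had a median length of 22.5 bases and 4 began with U, the 17 higher guides a median of 22 bases with 11 beginning with U, and the 21 not called a median of 21 bases with 11 beginning with U. Guides on the NveAGO1 list together took 13.4%, 14.5% and 12.1% of the miRNA counts in AGO1 KD, against 14.8%, 23.1% and 16.0% in Control1. On the spike-in scale their summed level was higher instead, at 2464, 1759 and 1818 counts per 10000 spike-in counts in AGO1 KD, against 1117, 1493 and 1285 in Control1. The groups did not overlap on either scale. Most of this level in AGO1 KD was nve-miR-2030-5p, at 1732, 1267 and 1272, against 586, 818 and 636 in Control1. The sum without this guide was not taken, so the summed level does not show a rise of the list as a group. Of the 11 guides on this list alone that were tested, 5 were called lower and 2 higher on the spike-in scale. Stars together took 5.03%, 6.26% and 4.91% in AGO1 KD, against 3.62%, 4.22% and 3.78% in Control1, without overlap, and their summed level was also higher in AGO1 KD on the spike-in scale, at 925, 759 and 739, against 273, 272 and 304 in Control1. Guides on the NveAGO2 list other than nve-miR-2024e-3p took 33.1%, 32.6% and 33.6% in AGO1 KD, against 45.4%, 33.0% and 40.3% in Control1. These shares overlapped, while the summed level on the spike-in scale was 6084, 3958 and 5068 in AGO1 KD, against 3423, 2130 and 3242 in Control1, without overlap.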
